A study of Mus musculus with 3 samples.

Results

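The exons described here lay in transcripts with many crosslinks in all, yet carried none themselves. They were internal exons of 80 nt or longer with 0 crosslinks in all 3 iCLIP libraries, in canonical transcripts of protein-coding genes (GENCODE vM39) with at least 100 crosslinks in their exons. Of 21770 canonical transcripts, 769 reached 100 crosslinks and 713 of these had an internal exon of 80 nt or longer. They held 12578 such exons, of which 1060 (8.43%) in 218 transcripts were uncrosslinked and 11518 carried at least 1 crosslink. In all, 136748 internal exons of that length stood in the canonical transcripts. Since the exons were selected on the crosslink counts themselves, their lack of crosslinks is given as a description and was not tested.

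The data came from 3 biological replicate iCLIP libraries of testes from wild type adult mice on a C57BL/6J background. Cells released from minced testes, labelled as mixed in type and called germ cells in the study's methods, were exposed to ultraviolet light and Tra2β was pulled down with a polyclonal anti-Tra2b antibody. Without a control library (input, IgG or knockout) to compare with, each exon was set against other exons of its own transcript. A crosslink below is 1 unique cDNA that ended at 1 nucleotide.

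Tra2β is an SR-like protein that binds purine-rich RNA, above all sequence with GAA, and promotes the inclusion of exons that contain it. In iCLIP a protein is joined to the RNA that it touches, and an exon can yield a crosslink only where it is present in the RNA, where the protein touches it and where its reads can be placed in the genome. A stretch without crosslinks inside a well-covered transcript is therefore of interest in itself, since the transcript's other exons give a measure of how many crosslinks its length alone would have brought.

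The libraries held 348033, 619571 and 488719 crosslinks in replicates 1, 2 and 3. Replicate 2 stood apart, with 13.3% of its crosslinks in canonical exons against 27.8% in replicate 1 and 39.2% in replicate 3. The exons tested here were at 0 in 4140, 5774 and 2307 cases in replicates 1, 2 and 3. Replicate 3 therefore contributed most of the exonic counts. All 13 germ cell markers examined, such as the protamine Prm2 (102, 43 and 168 crosslinks), had crosslinks in exons. Their sums were 1049, 295 and 1780 in replicates 1, 2 and 3. The 5 Sertoli cell markers summed to 54, 30 and 63 crosslinks, with only Amh at 0, and the 5 Leydig cell markers to 34, 24 and 44.

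Sequences are shown first for 3 uncrosslinked exons of the genes Ccdc136 and Rpgrip1, which lacked crosslinks where many were expected, and for the exon of Ccdc136 with the most crosslinks per nt. They are from GRCm39, on the sense strand, 5′ to 3′, and capitals mark every GAA. Ccdc136 exon 3 (chr6:29399200-29399448, plus strand) and Ccdc136 exon 17 (chr6:29419986-29420264) belong to a coiled-coil protein gene. Rpgrip1 exon 4 (chr14:52356653-52356891, plus strand) is shown whole. The first 300 nt are shown of Rpgrip1 exon 17 (chr14:52384667-52384966).
Ccdc136 exon 3, 0 crosslinks: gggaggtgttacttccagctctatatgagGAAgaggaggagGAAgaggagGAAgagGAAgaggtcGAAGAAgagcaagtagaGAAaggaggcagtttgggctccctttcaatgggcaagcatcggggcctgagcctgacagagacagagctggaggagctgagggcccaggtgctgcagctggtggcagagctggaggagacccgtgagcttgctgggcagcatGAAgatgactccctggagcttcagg
Ccdc136 exon 17, 290 crosslinks: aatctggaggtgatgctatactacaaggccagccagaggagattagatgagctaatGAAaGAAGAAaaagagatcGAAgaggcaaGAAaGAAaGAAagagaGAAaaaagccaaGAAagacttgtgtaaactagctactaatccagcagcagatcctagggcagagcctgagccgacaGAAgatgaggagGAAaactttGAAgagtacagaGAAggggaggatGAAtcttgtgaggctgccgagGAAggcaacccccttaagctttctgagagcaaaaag
Rpgrip1 exon 4, 0 crosslinks: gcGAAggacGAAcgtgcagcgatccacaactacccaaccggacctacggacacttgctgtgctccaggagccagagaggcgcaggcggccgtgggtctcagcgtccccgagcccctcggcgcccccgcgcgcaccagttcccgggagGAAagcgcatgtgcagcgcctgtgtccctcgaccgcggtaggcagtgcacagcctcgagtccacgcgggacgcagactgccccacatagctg
Rpgrip1 exon 17, 0 crosslinks: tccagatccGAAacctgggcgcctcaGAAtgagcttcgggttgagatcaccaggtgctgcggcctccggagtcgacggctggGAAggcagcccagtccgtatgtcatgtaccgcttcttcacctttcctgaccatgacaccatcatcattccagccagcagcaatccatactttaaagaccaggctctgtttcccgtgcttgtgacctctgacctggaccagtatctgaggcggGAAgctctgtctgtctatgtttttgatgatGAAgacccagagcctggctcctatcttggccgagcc

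These exons of Rpgrip1 held few GAA. Exon 4 held 3 GAA at 51.0% purine (A or G), and the stretch of exon 17 held 5 GAA, with 45.5% purine over the exon. Other uncrosslinked exons of Rpgrip1 held more for their length. Exons 3, 7, 9 and 16 had 5.63, 3.77, 3.40 and 2.63 GAA per 100 nt. Exons 4 and 17 had 1.26 and 1.46, and the median of all crosslinked exons was 2.94. The exons shown of Ccdc136 held more GAA than the exons shown of Rpgrip1. The uncrosslinked exon 3 was 66.3% purine with 8 GAA, most of them close together near its 5′ end, not far from the 69.5% purine of exon 17, which held 15 GAA. A GAA was present in nearly every exon tested, crosslinked or not. It was missing from 47 of the 1060 uncrosslinked exons (4.43%) and from 292 of the 11518 crosslinked exons (2.54%). The longer motif GAAGA, counted on the sense strand and overlapping GAA, occurred in 36.6% of uncrosslinked and 51.3% of crosslinked exons.

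The expected count of an exon was its length multiplied by the crosslinks per nt of all other exons of its transcript, summed over the libraries. Most uncrosslinked exons had a low expected count. Its median was 1.68, with the middle 50% between 0.865 and 2.55, against a median of 4.39 for crosslinked exons. Only 194 of them had an expected count of 3 or more. Among all 8163 exons with an expected count of 3 or more, 2.38% were uncrosslinked.

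**Figure D1:**
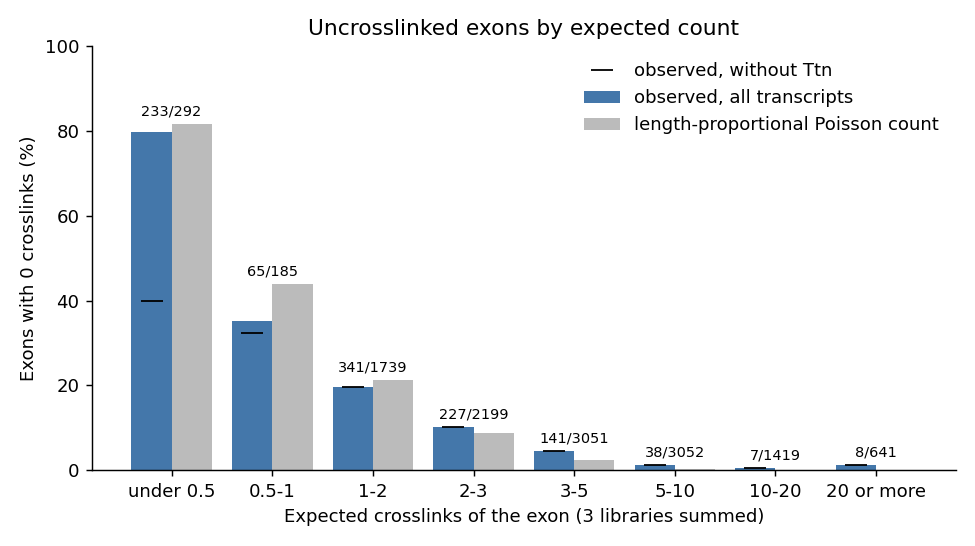
Share of tested exons with 0 crosslinks (y axis, percent) by the expected count of the exon (x axis, 3 libraries summed), beside the share that a Poisson count with that mean would leave at 0 (grey). Numbers over the bars are uncrosslinked and all exons of the class, and dashes give the share without Ttn. Observed and Poisson shares lie close below an expected count of 3, and uncrosslinked exons remain in the classes above 5, where the Poisson share is near 0.

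Set against a Poisson count with the same mean, the number of uncrosslinked exons was 866 for 881 at expected counts under 3, and 194 for 77.1 at 3 or more. In the class from 3 to 5 it was 141 of 3051 exons for a Poisson count of 71.2, and from 5 to 10 it was 38 of 3052 for 5.92. At 10 or more it was 15 of 2060 exons, for a Poisson count of 0.0113. The Poisson count assumes that crosslinks fall evenly along exons, which they do not, and serves here as a scale only. The expected count draws on all other exons, first and last exons included. Taken from other internal exons only, it reached 3 in 263 of the uncrosslinked exons instead of 194. On either scale the bulk of the uncrosslinked exons had an expected count under 3. A smaller set lay where more crosslinks would have been expected.

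Uncrosslinked exons were slightly shorter than crosslinked exons, with a median length of 137 nt against 144 nt, and the rule's limit of 80 nt bounds both. In 200 of the 217 transcripts with exons of both kinds the uncrosslinked exons were shorter on average, by a median of 51.1 nt. An exon with 0 crosslinks is more likely to be short by construction, since the expected count scales with length. Nearly all were coding: 1040 of the 1060 (98.1%) lay wholly within coding sequence, against 97% of crosslinked exons.

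Exons just outside the rule were set beside those within it. The 1266 exons with exactly 1 crosslink had a median expected count of 2.26, a median length of 131 nt and a median purine share of 53.3%, beside 1.68, 137 nt and 53.8% for the uncrosslinked exons. Without Ttn the uncrosslinked exons had a median length of 128 nt and a median purine share of 52.7%. There were 116 uncrosslinked exons of 80 to 89 nt and 111 of 70 to 79 nt. The 78 transcripts with at least 100 but under 110 crosslinks held 374 uncrosslinked exons, of which 239 were in the single transcript of Ttn. The 101 transcripts with 90 to 99 crosslinks, just under the limit, held 265.

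The largest single contributor stood on that edge. Ttn, which encodes the giant sarcomere protein titin of striated muscle, had exactly 100 crosslinks over 347 exons, 21, 37 and 42 in replicates 1, 2 and 3. It supplied 239 of the 1060 uncrosslinked exons (22.5%), out of 303 tested. Its exons carried 0.930 crosslinks per kb, against 40.6 per kb over the other 712 transcripts. The opposite strand of the Ttn exons carried 107 crosslinks, 38, 42 and 27 in replicates 1, 2 and 3, so the sense strand held no more than the antisense strand. The median expected count of its uncrosslinked exons was 0.257 and the highest was 0.648, so that even at the average coverage of Ttn none of them was expected to carry a full crosslink. Without Ttn, 821 of 12275 tested exons (6.69%) were uncrosslinked, and their median expected count was 2.05.

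The other uncrosslinked exons were spread over many genes. Of the 218 transcripts, 88 had exactly 1, 91 had 2 to 5, 19 had 6 to 10 and 20 had over 10. After Ttn, the most were in Dnah1, a dynein heavy chain (25 of 74), in Macf1, a linker of microtubules and actin (23 of 89), and in Syne2, which encodes the nuclear envelope protein nesprin-2 (23 of 107). Dnah7a and Trrap, the latter an adaptor of histone acetyltransferase complexes, had 22 each. These long transcripts had between 116 and 258 crosslinks in all. By share, Ttn was followed by Chl1 (12 of 22, 54.5%), Stard9 (11 of 21, 52.4%), Tnrc18 (11 of 25, 44.0%) and Rpgrip1 (8 of 21, 38.1%). Transcripts with an uncrosslinked exon had a median of 21.8 crosslinks per kb and 23 tested exons, against 47.0 per kb and 10 tested exons for those without.

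How far the lack of crosslinks recurred beyond the counts that chose the exons was read by leaving out each library in turn. Exons were chosen as uncrosslinked or crosslinked on 2 libraries, in transcripts with at least 100 crosslinks in those libraries, and then read in the left-out library. In replicate 1, 682 exons chosen at 0 held 335 crosslinks where 623 were expected, a ratio of 0.538, whereas the exons chosen as crosslinked held 1.36 times their expected count. In replicate 2 the ratios were 0.714 (305 crosslinks for 427 over 642 exons) and 1.37. In replicate 3 they were 0.694 (1186 for 1708 over 796 exons) and 1.32. The ratio of these ratios was 0.397, 0.522 and 0.525, with a mean of 0.481 ± 0.0731 (SD, n = 3 libraries). Each was below 1 by a two-sided exact binomial test, with adjusted p of 2.09e-86, 4.58e-36 and 2.90e-130. The binomial test covers counting error only and pools the crosslinks of all exons as independent counts. Over 3 libraries alone a two-sided exact sign test could not fall below 0.25. A ratio below 1 comes with the selection wherever exons differ in rate, and the exons compared with were themselves chosen as crosslinked. The ratios therefore measure how far differences between exons recurred, and cannot set the uncrosslinked exons apart as a separate kind. Ttn did not reach 100 crosslinks in any pair of libraries and played no part in this test.

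The deficit in the left-out library was deepest where more crosslinks were expected, an order that the selection brings by itself wherever exons differ in rate. A 0 at a low expected count says little about an exon, whereas a 0 at a high one picks out exons with few crosslinks. For exons at 0 whose expected count in the choosing libraries was 3 or more, the ratio to the expected count in the left-out library was 0.271, 0.492 and 0.329 in replicates 1, 2 and 3. At an expected count of 1 to 3 it was 0.760, 0.845 and 0.885, and below 1 it was 1.20, 0.875 and 0.947, so that in replicate 1 the exons in the lowest class showed no deficit. These exons were not devoid of crosslinks in the left-out library: 39.7%, 31.5% and 75.6% of the exons in the upper class had at least 1 there, against 84.7%, 64.0% and 97.8% of exons chosen as crosslinked.

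Uncrosslinked exons were poorer in purines and in GAA than crosslinked exons of the same transcripts. Exons with an expected count from 3 to 10 were compared by class of crosslinks, classes that had median lengths of 144 to 147 nt but median expected counts that climbed from 4.04 to 7.17. The median purine share was 52.4% at 0 crosslinks, 52.9% at 1 to 2, 53.8% at 3 to 5, 54.9% at 6 to 10, 58.2% at 11 to 20 and 61.6% above 20. The median GAA density climbed from 2.25 to 5.08 per 100 nt across the same classes, and the share of exons with GAAGA from 30.2% to 88.9%. GC share ran the other way, from a median of 49.5% at 0 crosslinks to 43.8% above 20. The uncrosslinked exons lay at the end of a gradient and close to exons with 1 or 2 crosslinks.

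**Figure D2:**
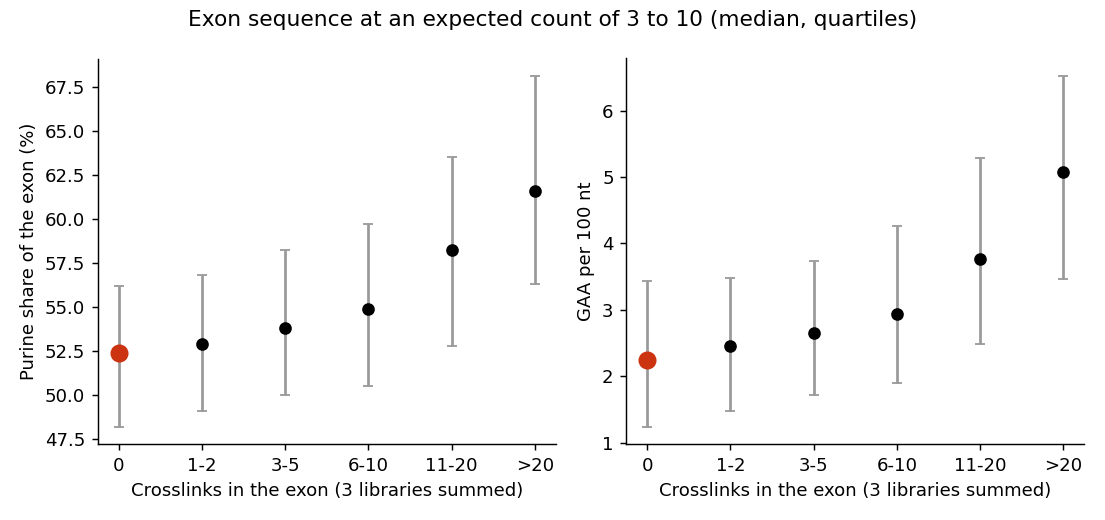
Purine share (left, percent) and GAA density (right, per 100 nt) of exons with an expected count from 3 to 10, by the number of crosslinks in the exon summed over the libraries; points are medians and bars reach the quartiles, with the 179 uncrosslinked exons in red. Both medians are lowest at 0 crosslinks, 52.4% and 2.25, and highest above 20 crosslinks, 61.6% and 5.08.

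The 7 planned features were tested with a logistic fit that held the expected count and compared exons within their transcript (6715 exons, of which 1058 uncrosslinked, in 217 transcripts). For each 10 percentage points of purine share the odds of 0 crosslinks were multiplied by 0.610 (95% interval 0.536 to 0.695, adjusted p 3.29e-13). For each additional GAA per 100 nt the factor was 0.814 (0.774 to 0.856, adjusted p 8.07e-15). GC share acted in the opposite direction, with a factor of 1.60 per 10 points (1.37 to 1.86, adjusted p 2.88e-09). When 0 crosslinks in a single library was taken as the outcome, the purine odds ratio was 0.715, 0.457 and 0.781 in replicates 1, 2 and 3 (0.651 ± 0.171, SD, n = 3), below 1 in each. The GAA odds ratio was 0.858, 0.733 and 0.877. Transcript by transcript, the uncrosslinked exons had the lower mean purine share in 151 of 217 transcripts and the lower GAA density in 154.

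The remaining planned features showed less. Position along the transcript had an odds ratio of 1.06 for each 10% of its length towards the 3′ end (1.02 to 1.1, adjusted p 0.00387), but this was lost under several settings, among them leaving out any 1 library (adjusted p 0.0564 to 0.259). A length divisible by 3, which keeps the reading frame if an exon is skipped, had an odds ratio of 1.08 (0.932 to 1.26, adjusted p 0.296). A crosslink in the 200 nt of intron on either side of the exon had an odds ratio of 0.882 (0.735 to 1.06, adjusted p 0.248).

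Annotated skipping did not separate the exons as a whole. An exon was called skipped where an intron of another transcript of its gene spanned it, which held for 19.9% of all tested exons and for 19.8% of the uncrosslinked exons. The odds ratio was 1.27 (0.867 to 1.86, adjusted p 0.256). The outcome depended on Ttn, in which 97 of the uncrosslinked exons were annotated as skipped. Without Ttn the odds ratio was 1.49 (1.1 to 2.00, adjusted p 0.0129), although the raw shares then ran the other way, 13.8% of uncrosslinked against 19.8% of crosslinked exons. That comparison was not made within transcripts: in transcripts with an uncrosslinked exon, Ttn included, 13.8% of the crosslinked exons were annotated as skipped.

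**Figure D3:**
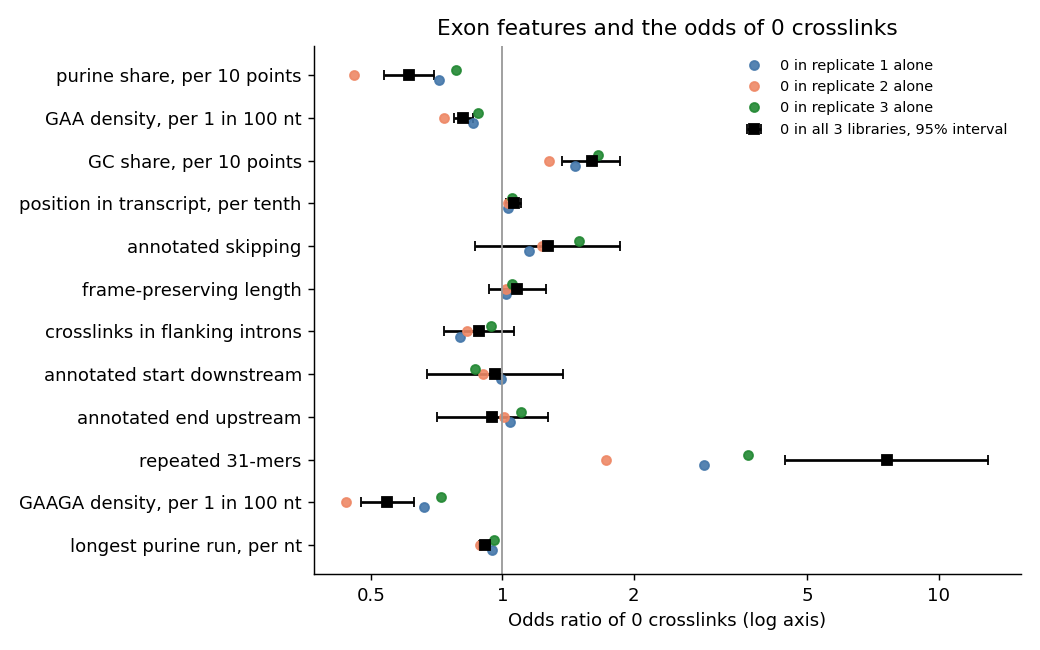
Odds ratios of 0 crosslinks for exon features (x axis, logarithmic), with squares and 95% intervals for 0 crosslinks in all 3 libraries and circles for 0 crosslinks in each library alone; the last 5 features were added after the data had been seen. Purine share, GAA and GAAGA density lie below 1 in every library, GC share and repeated 31-mers above 1, and annotated skipping spans 1.

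A further 5 features were added after the data had been seen. GAAGA density had an odds ratio of 0.544 for each motif per 100 nt (0.473 to 0.626, adjusted p 8.25e-17), and the longest unbroken purine run one of 0.910 for each nt (0.883 to 0.937, adjusted p 7.75e-10). A protein-coding start annotated downstream of the exon (0.960, adjusted p 0.825) and an annotated end upstream of it (0.948, adjusted p 0.825) missed the threshold. The largest odds ratio was that of repeated sequence, at 7.61 (4.45 to 13, adjusted p 3.05e-13) for exons in which under 90% of the 31-mers occurred once in the genome. It was 5.37 (2.97 to 9.72) without replicate 1, 7.61 (4.09 to 14.2) without replicate 2 and 3.77 (1.90 to 7.48) without replicate 3. For 0 crosslinks in replicates 1, 2 and 3 alone it was 2.89, 1.73 and 3.65. A 0 in 1 library is another outcome, met by more exons, so these sizes do not compare directly with 7.61. All of these odds ratios were above 1. Across all tested exons 4.61% were repeated in this sense, against 105 of the 1060 uncrosslinked exons (9.91%).

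The Poisson counts give a scale for these shares too. With under 50% unique 31-mers, 88 of 232 exons (37.9%) were uncrosslinked for a Poisson count of 32.4. From 50 to 90% it was 17 of 348 (4.89%), for 22.3. With all 31-mers unique it was 947 of 11729 (8.07%), for 895. Relative to the Poisson count the share was raised most in the most repeated class, while in number most uncrosslinked exons were fully unique. How reads that map to several places had been treated was not given in the sources used here.

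**Figure D4:**
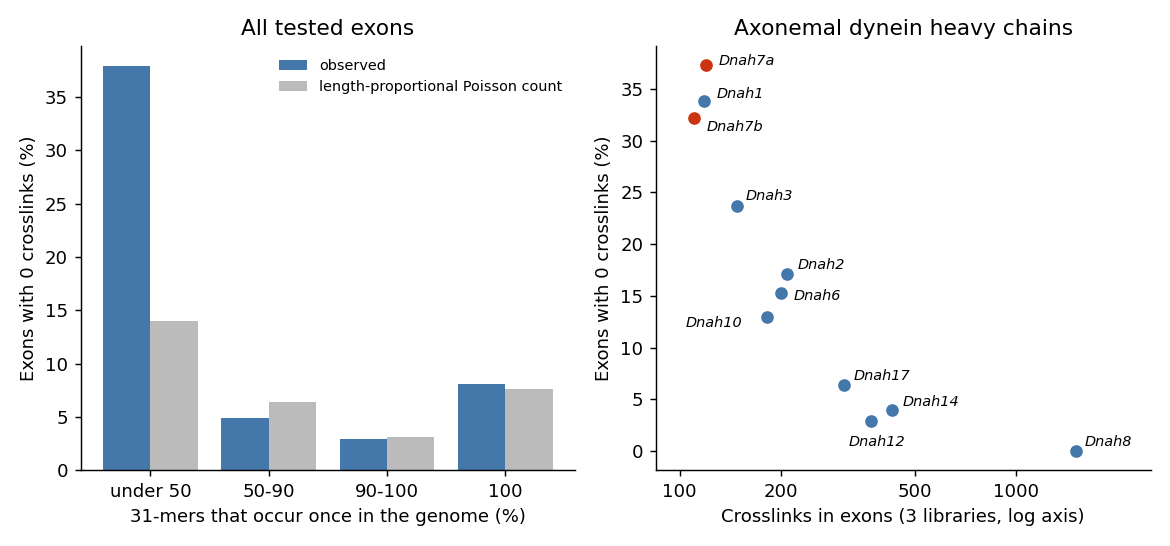
Left, share of tested exons with 0 crosslinks (blue) and the Poisson share (grey) by the share of 31-mers that occur once in the genome; right, the same share for each axonemal dynein heavy chain against its crosslinks in exons (logarithmic axis), with Dnah7a and Dnah7b in red. The share reaches 37.9% in the exons under 50% unique, and the dynein genes run from 37.3% in Dnah7a to 0 in Dnah8.

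Larp7 held an uncrosslinked exon with repeated sequence. Its product binds the 7SK RNA, and its exon 5 (chr3:127340303-127340467, minus strand, 165 nt) was at 0 in all libraries with an expected count of 32.6, while exon 4 beside it had 6, 0 and 12 crosslinks and exon 6 had 2, 5 and 9. All 165 nt of exon 5 occurred a second time, without a mismatch, in the pseudogene Larp7-ps (chr4:92079822-92079986), and none of its 31-mers was unique. The copy had 0 crosslinks as well. Exon 6, at 3.12% unique 31-mers, did carry crosslinks. A part of the copy in the lack of crosslinks in exon 5 was not tested.

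Gkap1, which encodes an anchoring protein of cGMP-dependent kinase, lost a whole stretch. Exons 1 to 5 held 72, 22 and 209 crosslinks (289 per kb), exons 6 to 11 held 0, 2 and 0 (4.07 per kb), and the last exon, 12, held 6, 0 and 29 (112 per kb). Exon 7 (chr13:58391616-58391768, minus strand) had an expected count of 30.6. Exons 7 to 11 occurred without a mismatch and without introns, end to end, at chr7:60403156-60403623, and none of their 31-mers was unique. The copies of the exons held 2 crosslinks in all, both in replicate 1. The intron after exon 6 held 23, 27 and 26 crosslinks. The introns after exons 7, 8, 9, 10 and 11 held 12, 4, 5, 1 and 5 over the 3 libraries. Whether the copy bore on the lack of crosslinks was not tested. Exons 7 and 8 were also annotated as skipped.

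The dynein heavy chains, motors of the sperm tail, had many uncrosslinked exons. Of 792 tested exons in 11 transcripts, 125 (15.8%) were uncrosslinked, for a Poisson count of 82.8. Without Dnah7a and Dnah7b, the only members of the family with repeated exons, it was 84 of 674 (12.5%), for 57.8. Dnah7a (22 of 59) and Dnah7b (19 of 59), near-identical paralogs with 120 and 110 crosslinks, had under 90% unique 31-mers in nearly all their tested exons (58 and 56 of 59), crosslinked or not. The median share of unique 31-mers was 21.3% in the uncrosslinked and 51.7% in the crosslinked exons of Dnah7a, and 15.2% and 38.5% in those of Dnah7b. The Poisson counts were 11.8 and 13.2. Dnah1, with 118 crosslinks, had 25 of 74 for a Poisson count of 17.2, and no repeated exon. Dnah8, the most crosslinked with 415, 269 and 815 crosslinks, had none among 87 exons. The third paralog, Dnah7c, had 94 crosslinks and fell just short of the rule.

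Among the 10 uncrosslinked exons with the highest expected counts and at least 90% unique 31-mers, 7 came from Ccdc136 and Rpgrip1. Ccdc136 exon 3 headed them, with 0 crosslinks where 22.4, 2.01 and 50.1 were expected in replicates 1, 2 and 3 (74.5 in all). A count of 0 out of the transcript's 1112 crosslinks allows a share of up to 0.270%, against 6.28% by length. Exon 2 (chr6:29397478-29397585) followed with 31.1 expected. The gap covered the whole 5′ part of the transcript: exons 1 to 4 had 0 crosslinks over 600 nt, and exons 5 to 18 had 334, 30 and 748 (330 per kb). Exon 5, the first beyond the gap, had 20, 2 and 67. The step at exon 5 was seen in replicates 1 and 3. Replicate 2 had too few counts to place it: exons 2 and 3 had 0.840 and 2.01 expected there, and exon 5 had 2 crosslinks.

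**Figure D5:**
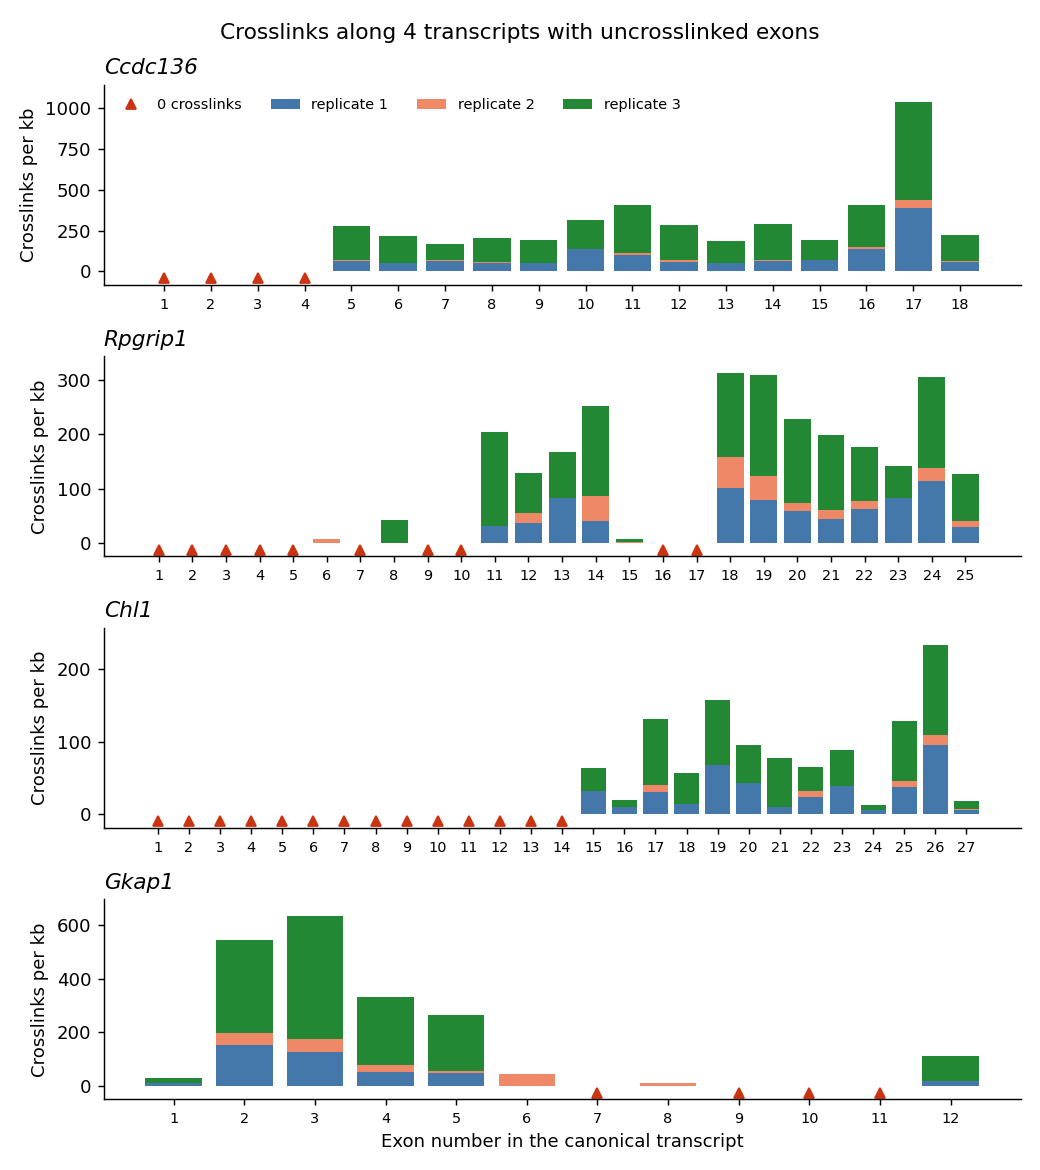
Crosslinks per kb of exon (y axis, replicates stacked) by exon number along the canonical transcripts of Ccdc136, Rpgrip1, Chl1 and Gkap1, with triangles at exons without crosslinks. Ccdc136 and Chl1 are empty up to exons 4 and 14, Rpgrip1 is nearly empty up to exon 10 and again from exon 15 to 17, and Gkap1 is nearly empty from exon 6 to 11.

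Rpgrip1, whose product anchors the RPGR protein at the base of cilia, had 2 gaps. Exons 1 to 10 held 0, 1 and 1 crosslinks over 1329 nt (1.5 per kb), exons 11 to 14 held 29, 10 and 77 (187 per kb), exons 15 to 17 held 0, 1 and 2 (3.16 per kb) and exons 18 to 25 held 142, 55 and 292 (194 per kb). In all 8 of its 21 tested exons were uncrosslinked. Exon 17 had the highest expected count, 41.3 (11.6, 4.53 and 25.2 by library), followed by exons 4 (28.2), 16 (17.6), 9 (17) and 3 (16.4). Exons 15 to 17 were all annotated as skipped, whereas exons 2 to 10 were not. The intron after exon 10, directly before the first crosslinked stretch, held 7, 0 and 26 crosslinks, against 18 in all 9 introns between exons 1 and 10.

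Chl1, Cast, M1ap and Erich3 had gaps of the same form, at their 5′ ends. Chl1, a cell adhesion molecule of the L1 family, had 0 crosslinks in exons 1 to 14 and 82, 11 and 139 in exons 15 to 27 (41.2 per kb). The intron after exon 14 held 7, 0 and 21 crosslinks in 2602 nt (10.8 per kb), the 13 introns before it 5 in 182503 nt (0.0274 per kb), and a protein-coding transcript was annotated to start in that intron or in exon 15. Cast, which encodes the calpain inhibitor calpastatin, had 0, 0 and 1 crosslinks in exons 1 to 13 and 48, 19 and 162 in exons 14 to 28, and the intron after exon 13 held 2, 1 and 21. In M1ap, a meiosis gene, exons 1 and 2 had 0 crosslinks, exons 3 to 10 had 35, 0 and 66, and the intron after exon 2 had 25, 35 and 36. In Erich3 the intron after the empty exons 1 to 5 had 8, 2 and 8, against 1 crosslink in all the introns before it. A protein-coding transcript was annotated to start at the corresponding place in Cast, after exon 13. No transcript was annotated to start there in M1ap or in Erich3.

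Gaps at the very 5′ end were few in number. In 10 transcripts at least 2 uncrosslinked exons lay in an unbroken run from exon 1. In 4 of the 10 the intron that closed the run was denser in crosslinks than the introns before it (Chl1, Erich3, Gm973 and Ccdc136). Another transcript was annotated to start between the run and the end of the next exon in 6 of the 10, and a protein-coding one in 3. Over all exons of the 713 transcripts that are followed by an intron, these shares were 13.8% and 4.73%. Those exons lay at every position, whereas the runs began at exon 1, so the shares are not matched for position. No library of full-length RNA was analysed here, so whether the RNA contained these exons was not tested.

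Gm50318 lacked crosslinks at the other end. Exons 1 to 4 of its 7 exons held 129, 58, 83 and 39 crosslinks, whereas exons 5 and 6 held 0, with 39.1 and 34.3 expected, and exon 7 held 1. All 7 exons overlapped exons of another gene on the same strand, and exons 5 to 7 lay partly or wholly beyond the coding sequence. The intron between exons 4 and 5 held 40, 34 and 92 crosslinks.

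Most other uncrosslinked exons stood alone or in short inner runs. Of the 1060, 491 (46.3%) had crosslinked exons on both sides, 509 were in a run of uncrosslinked exons within the transcript, 56 in a run from exon 1 and 4 in a run to the last exon. Without Ttn, 477 of 821 (58.1%) were alone. Runs of 5 or more exons held 223, of which 52 lay outside Ttn. The longest outside Ttn were those of Chl1 (14 exons), Stard9 (exons 9 to 19) and Cast (exons 1 to 10). Stard9, a kinesin, had 3 crosslinks in exons 1 to 20 together (1.42 per kb), 102 in its exon 22 of 9837 nt and 27 in exons 23 to 32, both at 10.4 per kb.

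The 194 uncrosslinked exons with an expected count of 3 or more were sorted by these features in turn, an order chosen after the data had been seen. Under 90% unique 31-mers were found in 24, another 57 lay next to an uncrosslinked exon, and 23 more were annotated as skipped. Of all 194, 12.4% were under 90% unique and 19.1% annotated as skipped, against 4.44% and 21.8% of the 7969 crosslinked exons with an expected count of 3 or more. Annotated skipping was thus about as frequent among the crosslinked exons. The remaining 90 exons, in 70 transcripts, had at least 90% unique 31-mers, no neighbouring exon at 0 and no annotated skipping. Of these, 88 were wholly coding. A neighbour could still be nearly empty. Rpgrip1 exon 7, with 12.2 expected, was among them and lay in the gap of exons 1 to 10, between neighbours with 1 crosslink each. Among these 90 exons, 29 were under 50% purine and 11 above 60%. Over all 194 the shares were 31.4% and 9.79%, against 20.9% and 25.2% of the crosslinked exons with an expected count of 3 or more.

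Single exons of meiotic and splicing genes were among these 90. Smc1b, a meiotic cohesin subunit, lacked crosslinks in exon 24 (chr15:84950420-84950530), where 2.26, 0.502 and 5.99 were expected. Exon 23 before it, of 70 nt, had 0, 0 and 2, and exon 25 after it had 4, 2 and 18. Stag3, another meiotic cohesin subunit, lacked them in exon 27 (chr5:138302304-138302452, 5.89 expected), between neighbours with 3, 0 and 5 and with 0, 1 and 3. Sf3b2, a subunit of the U2 snRNP, lacked them in exon 16 (chr19:5329870-5329977, 6.37 expected), between neighbours with 3, 2 and 6 and with 4, 4 and 9. Its exon 16 was 52.8% purine, between exon 15 at 42.6% and exon 17 at 68.5%, so that purine share did not set it apart from its crosslinked neighbours. Atxn2l exon 20 and Ep400 exon 27 held no GAA and were 41.0% and 48.8% purine, with 5.76 and 5.21 expected. The neighbours of Atxn2l exon 20 were as poor in purines, at 40.0% and 42.7%, and held 7 and 11 crosslinks, and those of Ep400 exon 27 were at 54.5% and 52.4% and held 6 and 4. Ccdc81 exon 14 was among the 11 above 60%, at 65.9% purine with 5.56 expected.

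Other gene families had smaller shares of uncrosslinked exons than the dynein heavy chains. Among 18 Cfap genes of cilia and flagella, 18 of 381 exons (4.72%) were uncrosslinked, for a Poisson count of 13.7. It was 18 of 298 (6.04%, for 13.5) in 16 Cep centrosome genes, 8 of 383 (2.09%, for 4.66) in 25 Ccdc coiled-coil genes and 5 of 104 (4.81%, for 5.05) in 6 Kif kinesin genes. Only a few exons were found in the small groups of cohesin and SMC genes (3 of 157, for a Poisson count of 3.05), synaptonemal complex genes (1 of 44, for 0.0253), piRNA pathway genes (1 of 62, for 0.814), Tex genes (1 of 35, for 1.86), Zfp zinc finger genes (1 of 68, for 3.65) and splicing factors and helicases (3 of 167, for 2.82). The 11 Usp ubiquitin protease genes had 10 of 242, for 16.1, and the 12 Spata genes had none among 62 exons, where their median expected count was 9.95. Beside 6.69% over all tested exons without Ttn, only the dynein heavy chains lay above that share.

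The introns next to uncrosslinked exons were also less crosslinked. In the 200 nt of intron upstream they held 0.266, 0.354 and 0.313 crosslinks per kb in replicates 1, 2 and 3, against 0.399, 0.526 and 0.661 beside crosslinked exons of the same transcripts, and the 2 ranges did not overlap. Downstream the values were 0.271, 0.297 and 0.297 against 0.401, 0.422 and 0.584. Without Ttn the upstream values were 0.321, 0.430 and 0.379 against 0.403, 0.530 and 0.666, and the ranges overlapped. The downstream values without Ttn were 0.332, 0.351 and 0.357 against 0.405, 0.425 and 0.590, and the ranges did not overlap. At an expected count of 3 or more the values were 0.517, 0.598 and 0.408 against 0.536, 0.640 and 0.839 upstream. Downstream they were then 0.215, 0.322 and 0.457 against 0.461, 0.424 and 0.734, and the ranges overlapped on both sides. These densities were not matched for coverage, and in the fit that held the expected count the difference missed the threshold, as given above.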

How the data were processed

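Tra2β iCLIP libraries of 3 mouse testis samples formed 1 group. The authors deposited, per library, counts of unique cDNAs at each crosslinked nucleotide, on mm39 (GRCm39). The submitters' processing notes name Trim Galore 0.6.7, Bowtie 1.3.1, STAR 2.7.9a and UMI-tools 1.1.2; the study's methods name the iMAPS pipeline. The treatment of multi-mapping reads is not given in the sources used here.

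Counts were summed over exons, by strand, of Ensembl canonical transcripts (GENCODE vM39). The 31-mers of each exon were counted in both strands of the genome. Logistic fits (statsmodels 0.14.6, Python 3.11.15) took 0 crosslinks as the outcome, with the logarithm of the expected count and its square as covariates, features centred within the transcript and errors clustered by transcript. P-values were adjusted by Benjamini-Hochberg over 7 planned and, separately, 5 added features, and over 3 left-out libraries. Fits were tested on simulated data. Intervals and limits for a count of 0 (3 counts) cover counting error only.

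Named exons were the 10 with the highest expected count and at least 90% unique 31-mers, and named transcripts the 5 with most uncrosslinked exons and the 5 with the highest share among those with at least 10 tested. Larp7, Gkap1, Cast, Erich3, Gm50318's other exons and the single exons were chosen after their values were seen. The exons, lists and features were chosen with earlier results of these data known. The sequence of 1 crosslinked exon is not reported here.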

Additional observations from a re-analysis of the deposited data

Results flagged for a closer look

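On the strand opposite to the uncrosslinked exons, which entered no comparison, 86 crosslinks were found, 29, 37 and 20 in replicates 1, 2 and 3. This strand played no part in choosing the exons, and no control library was analysed here. Ttn accounted for 66 of them, at 1.21 per kb, and the other 20 lay over the remaining 821 exons. Per kb and averaged over the libraries the antisense density was 0.169 ± 0.050 (SD, n = 3) over uncrosslinked exons and 0.0749 ± 0.0383 over crosslinked exons of the same transcripts. Without Ttn it was 0.0577 ± 0.0436 and 0.0689 ± 0.0387, a difference smaller than the spread between libraries.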

How the results depend on the processing

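The odds ratios of purine share (0.604 to 0.770), GAA density (0.768 to 0.895) and GC share (1.31 to 1.92) kept their direction and their side of the threshold under all 15 alternatives, as did the left-out-library ratio (0.307 to 0.543) under all 12. With any 1 library left out these were 0.543 to 0.775, 0.788 to 0.849, 1.52 to 1.71 and 0.451 to 0.660. Position lost its call with transcripts of at least 200 crosslinks (1.05, adjusted p 0.238), with unique exons (1.04), without the 10 transcripts richest in uncrosslinked exons (1.04) and with any 1 library left out (1.03 to 1.05). Annotated skipping passed the threshold without those 10 transcripts (1.49, adjusted p 0.0260), with the expected count in deciles (1.36, adjusted p 0.0373), without Ttn (1.49, chosen after seeing the data) and without replicate 1 (1.62) or 2 (1.59), over a range of 1.26 to 1.62 with 1 library left out. Flanking introns passed when crosslinks up to 5 nt outside the exon were counted to it (0.767, adjusted p 0.00585). Frame-preserving length turned at 200 crosslinks (0.937) and without replicate 1 (0.993) or 2 (0.962), over 0.962 to 1.01. Among the added features, repeated 31-mers had odds ratios of 3.77 to 7.61 with 1 library left out, the lowest without replicate 3, and GAAGA density 0.451 to 0.596. The causes were not tested. The number of uncrosslinked exons fell to 242 at 200 crosslinks, 686 at 110 (chosen after seeing the data), 669 at 120 nt, 629 without those 10 transcripts and 642 to 796 with 1 library left out, each by construction from fewer exons or transcripts. With an expected count of 3 or more it was 115 at 200 crosslinks and 90 to 165 with 1 library left out, 90 being without replicate 3. It rose to 263 with the expected count taken from other internal exons. No paired analysis was possible because the series has 1 group. The depth limits single exons: in the main setting 866 of the 1060 had under 3 crosslinks to expect.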
